A study of Sus scrofa with 96 samples.

Results

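This account concerns 200 abundant transcripts that the articular cartilage and the synovium of intact minipig knees held at nearly equal levels. They are 200 of the 46295 transcripts quantified in the files. The members were chosen from the intact knees alone. For every transcript the estimated reads were divided by the library's sum and multiplied by 1000000 (CPM), and the mean CPM of the CON libraries was taken in cartilage (C) and in synovium (S). A member was longer than 300 bases, had a tissue ratio r = log2((C + 1)/(S + 1)) between -0.5 and 0.5, and was among the 200 highest in C + S of the 27902 transcripts that met both conditions. Abundance and evenness in CON knees are therefore what the choice used, and they are given here as a description only.

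The libraries came from Yucatan minipigs 52 weeks after surgery on 1 knee, with the animals described by the study as adolescent. In ACLT knees the anterior cruciate ligament (ACL) was transected and left alone. In RECON knees the transection was followed by reconstruction with a fresh-frozen bone-patellar tendon-bone allograft, and in REPAIR knees by suture repair with an extracellular matrix scaffold soaked in the animal's own blood. CON knees were intact, but each belonged to an animal whose other knee had been operated on, 4 from each treatment by the study's animal list, so CON is not tissue from animals without surgery. Each knee gave 1 cartilage and 1 synovium library. Of 96 libraries, 94 from 47 knees entered the tests (12 CON, 11 ACLT, 12 RECON and 12 REPAIR knees), since knee ACLT 12 was not in the study's animal list.

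Articular cartilage is the avascular bearing surface of the joint, made by chondrocytes within a dense matrix. Synovium lines the joint capsule and holds fibroblasts, macrophages, vessels and fat. Transcripts that such different tissues hold at like levels are the kind often used as internal references, and that use assumes that they hold steady when the joint is injured. The deposited tables identify each transcript by an Ensembl identifier with a version and do not pair it with a gene, and no pairing was available here. The members are therefore described by identifier, length, level and response, no gene function is given, and the labelled tissues were not checked against marker genes. Reads of isoforms or near-identical copies are divided between transcripts by estimation, so a member's level can depend on that division.

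Library totals ran from 7483049 to 21937198 estimated reads with a median of 14652264. The lowest estimate of any member in any library was 55 reads, and 199 members had at least 100 in all 94 libraries. Counting error alone would give a coefficient of variation (CV, the SD as a percent of the mean) of at most 3.03% for a group mean of any member, with a median of 1.57%. In synovium, 1 of 12 CON libraries (CON 11) lay nearer the mean of the treated libraries than that of the other CON libraries over 30447 transcripts, and 2 of 35 treated libraries (REPAIR 5 and REPAIR 7) lay nearer the CON mean. On a line from 0 at the CON mean to 1 at the treated mean, CON 11 lay at 1.00, REPAIR 5 at 0.445 and REPAIR 7 at 0.171. In cartilage 7 of 12 CON libraries lay nearer the treated mean and 6 of 35 treated libraries nearer the CON mean. Synovium counts are given below also without these 3 libraries. They were picked by their position between the groups, so leaving them out favours a difference.

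The members spanned a wide range of abundance. The most abundant, ENSSSCT00000106104.1 (1567 bases), had a mean of 32739 CPM in CON cartilage and 25921 CPM in CON synovium. ENSSSCT00000056782.3 (5357 bases) followed with 11402 and 11454 CPM, and the third had a C + S of 6096 CPM. The median member had 283 CPM in cartilage and 289.5 CPM in synovium. At the lower edge, the last member had a C + S of 355 CPM and the first transcript left out had 353. The largest r inside the limit was 0.497 and the nearest outside was 0.514, and on the other side these were -0.49986 and -0.503. Of the 590 transcripts with a C + S at or above that of the last member, 156 leaned to cartilage (r of 0.5 or more) and 233 to synovium (r of -0.5 or less).

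Per length, the median member stood at 297 TPM (reads scaled by effective length, then to a sum of 1000000 per library) in CON cartilage and 273 TPM in CON synovium, against 4.43 and 6.75 TPM over all 30447 transcripts tested. Length was not used beyond the minimum of 300 bases. Members ran from 314 to 24403 bases with a median of 3066, close to the 3117 of all tested, but their lengths were more spread out. The members under 1000 bases numbered 42, and 66 were over 5000. Of the 200 cartilage-leaning transcripts picked in the same way with r above 0.5, 8 were under 1000 bases, and of the 200 synovium-leaning ones with r under -0.5, 15 were.

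The balance between the tissues after surgery was read in knees that the choice did not use. On library totals, the scale of the rule, r stayed between -0.5 and 0.5 for 164 members in ACLT, 160 in RECON and 168 in REPAIR knees, and for 153 members in all 3. Medians of r were 0.01 in ACLT, -0.08 in RECON and -0.05 in REPAIR, against -0.05 in CON. In all 3 treated groups, 19 members had an r under -0.5, towards synovium, and 7 had an r over 0.5, towards cartilage. By group (ACLT, RECON, REPAIR), 24, 28 and 24 members were under -0.5, against 11172, 11130 and 13297 of the 30447 transcripts tested. Over 0.5 were 12, 12 and 8 members, against 3787, 3658 and 3133. Within single knees the balance was looser. On library totals, between 98 (knee CON 1) and 170 members of a CON knee had an r inside the limits. The medians over knees were 158 in CON, 143 in ACLT, 138 in RECON and 143.5 in REPAIR. CON knees chose the members, so a higher count in CON was built in, and these medians do not show a loss of balance.

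**Figure D1:**
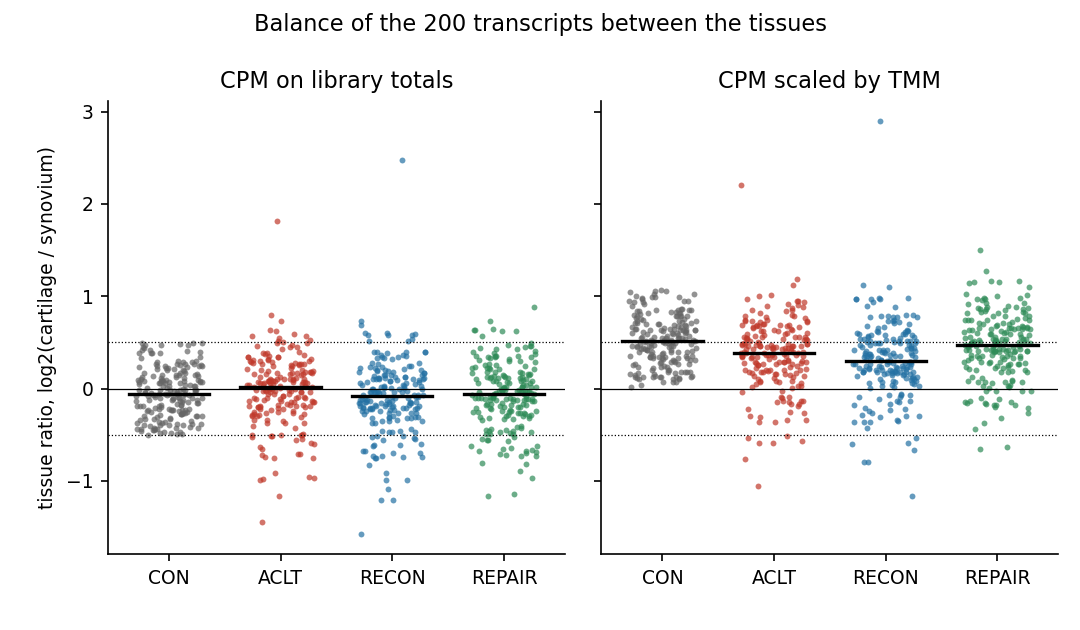
Each point is 1 of the 200 transcripts, and its height is the tissue ratio, log2 of mean cartilage over mean synovium CPM plus 1, in CON, ACLT, RECON or REPAIR knees; black lines are medians and dotted lines mark -0.5 and 0.5. On library totals (left) the CON values fill the limits that chose the members, and 160 to 168 members stay inside after surgery. With TMM scaling (right) the CON median is 0.52, with 93 members inside in CON and 104 to 136 after surgery.

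This evenness belonged to the scale on which it was defined. TMM scaling (trimmed mean of M values) sets each library so that most transcripts do not differ, and its factors had medians of 0.803 to 0.892 in the cartilage groups and 1.14 to 1.31 in the synovium groups. With TMM scaling the median r of the members in CON knees was 0.52. All 200 had an r above 0 in CON, and 93 were within the limits. After surgery 125 were within them in ACLT, 136 in RECON and 104 in REPAIR knees, so this count rose where that on library totals fell. Of all transcripts tested, 54.5% were within them in CON, and 53.7%, 54.5% and 54.0% in the 3 treatments. Within single knees, the medians with TMM scaling were 107 members in CON, 110 in ACLT, 102.5 in RECON and 92.5 in REPAIR. Of the 200, 93 would also be chosen by the same rule on TMM-scaled CPM.

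The edgeR quasi-likelihood test with Benjamini-Hochberg adjustment over all transcripts was run between the tissues of the treated knees. With TMM scaling, 133 members were higher in cartilage and 8 higher in synovium in ACLT knees, where 47.4% of all transcripts tested were called. In RECON knees 113 and 14 were called, against 48.8% of all tested, and in REPAIR knees 148 and 4, against 49.4%. The median log2 ratios of the members were 0.39, 0.31 and 0.47. On library totals the same tests split nearly evenly in ACLT knees, with 42 members higher in cartilage and 40 higher in synovium (47.7% of all tested called), and leaned to synovium in RECON knees with 30 and 60 (48.8%) and in REPAIR knees with 36 and 59 (55.3%). Relative to the median of all transcripts tested, the members lay towards cartilage by 0.37, 0.29 and 0.49 with TMM scaling and by 0.38, 0.29 and 0.49 on library totals. In CON knees the median r was 0.52 for members and -0.005 for all tested with TMM scaling. On library totals these were -0.05 and -0.43, so a lean of this kind was already set in CON by the choice. With TMM scaling 35 members were called in none of the 3 treated groups (39.2% of all tested), 111 were higher in cartilage in all 3 (18.0%) and 3 higher in synovium in all 3 (19.3%). On library totals these were 84 (36.3% of all tested), 24 (7.68%) and 38 (31.6%).

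In cartilage few members changed after surgery. Treated against CON (the mean of the 3 treatments), 1 member was lower and none was higher, where 0.975% of all transcripts tested were called. That member (3684 bases, rank 76 by abundance) had a median of 371.1 CPM in CON cartilage (278 to 432) and 290.0 CPM over the 35 treated libraries (176 to 405). The groups overlapped, with 14 of 35 treated libraries below every CON library. Its log2 fold change was -0.32 ± 0.07 (SE; edgeR adjusted p = 0.0134). It was not called with the animal as a block, with RNA integrity as a covariate or in synovium, where its log2 fold change was 0.06 (edgeR adjusted p = 0.694). By treatment, no member was called in ACLT (0.345% of all tested), 1 was lower in RECON (0.998%) and none was called in REPAIR (0.493%). At an unadjusted p under 0.05 the edgeR test gave 11, 24 and 20 members, against 7.03%, 11% and 8.34% of all tested. DESeq2 called 1, 3 and 1 after adjustment, against 1.11%, 1.89% and 1.11%.

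A p that misses the threshold does not bound a shift, whereas an interval does. In cartilage, 164 members (82.0%) had the whole 95% interval of the log2 fold change within -0.5 to 0.5 in ACLT, RECON and REPAIR alike, against 27.99% of all transcripts tested, 57 of the 200 cartilage-leaning and 80 of the 200 synovium-leaning transcripts. Abundance narrows such intervals and CON libraries enter both the choice and the comparison, so these shares are a description. The largest shift of any member in cartilage was a log2 fold change of -0.73, in RECON, and it was not called.

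In synovium more members changed. Treated against CON with TMM scaling, 51 members were higher and 5 lower, where 18.4% of all transcripts tested were called, 9.16% higher and 9.24% lower. The log2 fold changes of the 51 ran from 0.13 to 1.38 with a median of 0.43, 22 were over 0.5 and 4 over 1. Apart from 1 transcript at -1.76, the lower ones lay between -0.26 and -0.16. All 56 had the same sign in ACLT, RECON and REPAIR.

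**Figure D2:**
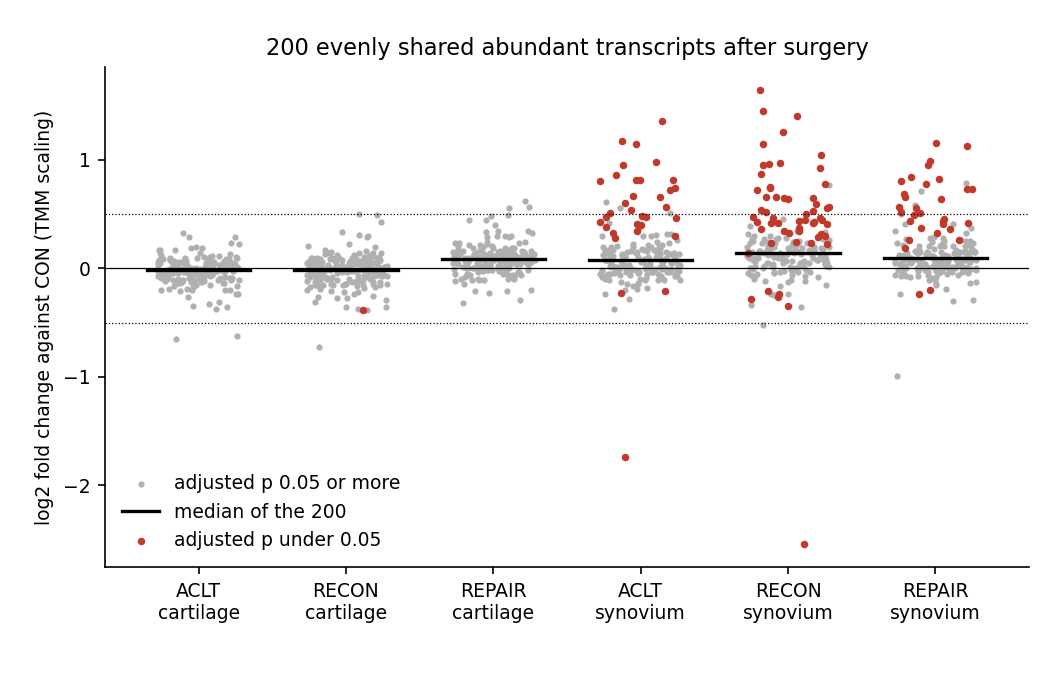
Each point is 1 of the 200 transcripts, and its height is the log2 fold change of a treatment against CON with TMM scaling; red points had an adjusted p under 0.05 (edgeR), black lines are medians and dotted lines mark -0.5 and 0.5. In cartilage 1 point is red, and in synovium 33 are red in ACLT, 58 in RECON and 31 in REPAIR.

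On library totals the direction was mixed. There, 26 members were higher and 25 lower, where 21.4% of all tested were called, 4.59% higher and 16.8% lower. The median log2 fold change of all transcripts tested was -0.02 with TMM scaling and -0.18 on library totals, so the scales differ by a shift of all values. The members' own medians were 0.11 and -0.04, and relative to all transcripts tested they lay 0.13 higher on both scales. The 26 members higher on library totals were all among the 51, the other 25 of the 51 were called with TMM scaling alone, the 5 lower ones were lower on both scales, and 20 more were lower on library totals alone. TMM factors differed between CON and treated synovium, with medians of 1.31 in CON and 1.15 over the 35 treated libraries, and their part in the result was not tested beyond giving both scales.

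**Figure D3:**
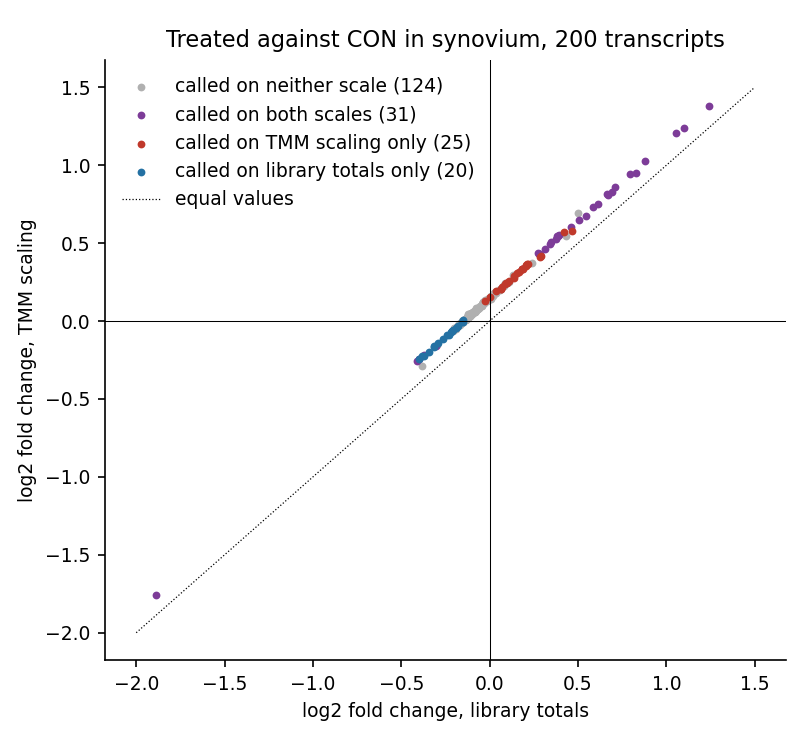
Each point is 1 of the 200 transcripts, placed by its log2 fold change in synovium, treated against CON, on library totals (horizontal) and with TMM scaling (vertical); colours give the scale on which it had an adjusted p under 0.05. All points lie above the line of equal values by 0.10 to 0.19, with 31 called on both scales, 25 with TMM scaling alone and 20 on library totals alone.

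By treatment, 30 members were higher and 3 lower in ACLT synovium (8.93% of all tested called), 52 higher and 6 lower in RECON (17.1%), and 29 higher and 2 lower in REPAIR (8.04%). Of all tested, 4.99%, 9.07% and 4.62% were called higher and 3.94%, 8.06% and 3.42% lower in these comparisons. The 3 comparisons share the CON libraries. On library totals the members called were 19 higher and 11 lower (11.3% of all tested), 28 and 21 (18.8%), and 17 and 6 (8.80%). On that scale 2.85%, 4.61% and 2.20% of all tested were higher and 8.45%, 14.2% and 6.60% lower. With all 3 intervals read together, 123 members (61.5%) stayed within -0.5 to 0.5 in synovium, against 19.3% of all tested, 31 of the cartilage-leaning and 60 of the synovium-leaning transcripts. Over both tissues, 117 members kept all 6 intervals inside, against 16.2% of all tested, and 139 were called in none of the 6 comparisons, against 79.4% of all tested. The largest absolute log2 fold change of a member had a median of 0.23.

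The 12 CON knees came from 12 operated animals, which allowed a fit with the animal as a block. In that fit 31 members were higher and 2 lower in treated synovium, where 7.51% of all tested were called, and 29 and 2 of these were among the 51 and 5. Each treatment then rested on 4 animals with both knees: by edgeR no member was called in ACLT (0.00328% of all tested), 2 were higher in RECON (0.204%) and none was called in REPAIR (0.00%). At an unadjusted p under 0.05 there were 60, 40 and 16 members, against 12.5%, 14.7% and 6.00% of all tested. The operated synovium was higher than the intact one in a median of 11 of the 12 animals for the 51 members and of 7 for members not called, which is a description, since the same libraries made the calls. Without the synovium of CON 11, REPAIR 5 and REPAIR 7, 62 members were higher and 6 lower, and 51 and 4 of these were among the 51 and 5, where 22.4% of all tested were called. REPAIR alone went from 31 to 52 members called, while the share of all tested went from 8.04% to 15.1%. Members chosen by the same rule on CON 1 to 6 and tested against CON 7 to 12, which the choice had not used, gave 30 higher and 4 lower, where 9.79% of all tested were called. CON 7 to 12 are fewer knees and include CON 11, whose synovium lay at 1.00 on the line given above.

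The calls were spread over the range of abundance, with 17 members higher among ranks 1 to 50, 10 among ranks 51 to 100, 12 among ranks 101 to 150 and 12 among ranks 151 to 200. Members called higher were longer, with a median of 3959 bases (616 to 24403), than members not called, with a median of 2016 (314 to 16034). The lower ones had a median of 5717 bases. Length was not tested against the shift. The study reported a lower mean RNA integrity in operated than in CON synovium. With RNA integrity as a covariate, 49 members were higher and 4 lower in treated synovium, where 17.9% of all tested were called. In cartilage the 51 had log2 fold changes from -0.52 to 0.40 with a median of 0.04, so 28 of 51 were above 0 and none was above 0.5.

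ENSSSCT00000056782.3, the second most abundant member, had the largest rise among those called in synovium. Its level ran from 5901 to 29744 CPM in CON synovium with a median of 9244, from 11033 to 47363 with a median of 24284 in ACLT, from 16108 to 57433 with a median of 28205 in RECON, and from 4676 to 42753 with a median of 23393 in REPAIR. The highest CON value was that of CON 11 and the lowest REPAIR value that of REPAIR 7. The groups overlapped, also without these libraries. Treated against CON, the log2 fold change was 1.38 ± 0.24 (SE; edgeR adjusted p = 7.92e-06) with TMM scaling and 1.24 on library totals. It was 1.36 in ACLT, 1.64 in RECON and 1.13 in REPAIR. Without the 3 libraries it was 1.69, and with the animal as a block 1.57 (edgeR adjusted p = 0.00949), with the operated knee higher in 10 of 12 animals. In cartilage its medians were 11954 CPM in CON and 14216 over the treated libraries, with a log2 fold change of 0.37 ± 0.22 (SE; edgeR adjusted p = 0.671).

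ENSSSCT00000006167.5 (3657 bases, rank 57) was next. CON synovium ran from 207 to 868 CPM with a median of 366, and the highest was again CON 11. The medians were 789 CPM in ACLT (508 to 1084), 912 in RECON (521 to 1300) and 812 in REPAIR (441 to 1183). Of the 35 treated libraries, 16 were above every CON library and none was below the lowest. The log2 fold change was 1.24 ± 0.19 (SE; edgeR adjusted p = 8.74e-07) with TMM scaling and 1.10 on library totals, and the operated knee was higher in 12 of 12 animals. In cartilage the medians on library totals were 422 CPM in CON and 389 in treated knees. The groups overlapped, with 9 of 35 treated libraries above every CON library and 2 below. With TMM scaling the log2 fold change was 0.14 (edgeR adjusted p = 0.965).

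ENSSSCT00000046829.3 (1508 bases, rank 37) had the largest fall. In CON synovium it ran from 46.8 CPM in CON 11 to 699 CPM, with a median of 476. Its medians were 99.9 CPM in ACLT (5.1 to 246), 45.0 in RECON (8.7 to 217) and 118 in REPAIR (5.4 to 1156). The highest REPAIR value was that of REPAIR 7, the only treated library above every CON library, and 11 of 35 treated libraries were below every CON library. The log2 fold change was -1.76 ± 0.35 (SE; edgeR adjusted p = 0.000113) with TMM scaling, -1.89 on library totals, -2.20 without the 3 libraries and -2.38 with the animal as a block. It was called in ACLT (-1.74) and RECON (-2.55) and not in REPAIR (-0.99; edgeR adjusted p = 0.211), while REPAIR against RECON gave 1.56 (edgeR adjusted p = 0.179), so a difference between these treatments was not shown. Without the 3 libraries the fall in REPAIR was -2.08 ± 0.47 (SE; edgeR adjusted p = 0.000897) and was called. Those libraries hold the lowest CON and the highest REPAIR value, so leaving them out favours this call. In cartilage the values overlapped, with medians of 472 CPM in CON and 344 in treated knees (log2 fold change -0.29, edgeR adjusted p = 0.967). Its CV was high in several groups, 58.8% in CON cartilage and 147% in REPAIR synovium.

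ENSSSCT00000023164.3 (9454 bases, rank 134) had the next largest fall and shows the size of the others. CON synovium ran from 138 CPM in CON 11 to 260.4, with a median of 219, and the medians were 163 CPM in ACLT (139 to 193), 150.1 in RECON (109 to 214) and 168 in REPAIR (110 to 219). The groups overlapped, with 6 of 35 treated libraries below every CON library and none above the highest. The log2 fold change was -0.26 ± 0.08 (SE; edgeR adjusted p = 0.0129) with TMM scaling, -0.41 on library totals and -0.24 with the animal as a block (edgeR adjusted p = 0.0246).

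**Figure D4:**
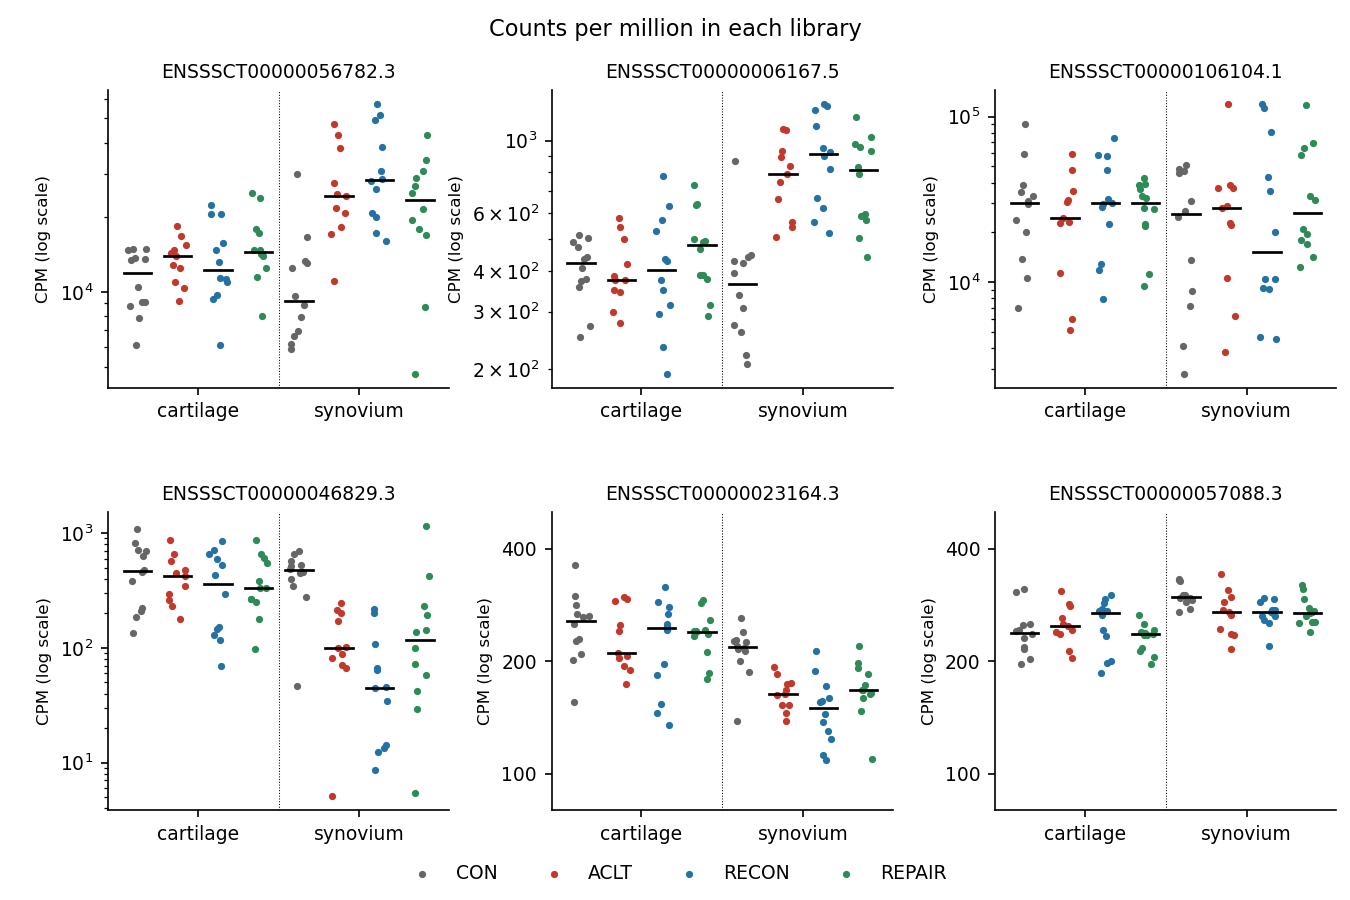
Each point is 1 library, with CPM on library totals on a log axis, for the transcripts named in the text; cartilage is left and synovium right of the dotted line, colours give the group and black lines are medians. The upper left and middle transcripts have higher medians in the 3 treated synovium groups than in CON, the lower left and middle ones have lower medians, and the most abundant transcript (upper right) runs from 2800 to 119871 CPM in synovium.

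The most abundant member, ENSSSCT00000106104.1, varied too widely for a shift to be read. In CON synovium it ran from 2800 to 50837 CPM with a median of 25953, and over the treated libraries from 3784 to 119871 with a median of 22869. Of 35 treated libraries 8 were above every CON library, and none was below the lowest. Its log2 fold change in synovium was 0.69, with a 95% interval from -0.13 to 1.51 (edgeR adjusted p = 0.276). Cartilage ranged from 7020 to 90511 CPM in CON with a median of 30187, and from 5141 to 74685 with a median of 29776 over the treated libraries. In single CON knees its r reached 4.42, so its evenness held for the group means and not for each knee.

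ENSSSCT00000057088.3 (15268 bases, rank 111) was the steadiest member, with no log2 fold change above 0.047 in size in the 6 comparisons. Its medians were 239 CPM in CON cartilage, 242 in treated cartilage, 297 in CON synovium and 271 in treated synovium. The CV was 6.7% in CON synovium and 14.8% in CON cartilage. This steadiness also depended on the scale. In synovium, treated against CON, its log2 fold change was 0.00 with a 95% interval from -0.09 to 0.09 with TMM scaling and -0.15 (edgeR adjusted p = 0.0474) on library totals.

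The median CV of the members with TMM scaling was 18.6% in CON cartilage and 11.7%, 12.9% and 13.6% in ACLT, RECON and REPAIR cartilage. It was 17.1% in CON synovium and 19.8%, 25.2% and 15.4% in the treated synovium groups. These medians depended on the scale. On library totals the cartilage medians lay close together, at 16.19% in CON and 14.85%, 16.16% and 15.76% in ACLT, RECON and REPAIR. In synovium they were 13.73% in CON and 16.97%, 26.09% and 16.04% in the treated groups. REPAIR synovium was therefore below CON with TMM scaling and above it on library totals. Over all transcripts tested the group medians with TMM scaling lay between 36.3% and 41.3%. The lists differ in abundance. In CON cartilage and CON synovium the median TPM was 297 and 273 for members and 4.43 and 6.75 for all tested. For the cartilage-leaning list it was 50.5 in CON synovium. The part of abundance in these CVs was not tested. In every one of the 8 groups, 42 members had a CV under 20%, whereas 12 had a CV over 50% in at least 1 group. With TMM scaling the cartilage-leaning list had a median CV of 23.9% in CON cartilage, and the synovium-leaning list 21.5% in CON synovium. In RECON synovium these lists had 39.3% and 23.5% on that scale, the latter below the members' 25.2%.

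As a part of each library, the 200 transcripts held 11.7% ± 2.39 (SD, n = 12) of the reads in CON cartilage and 11.2% ± 2.00 (SD, n = 12) in CON synovium. The cartilage of treated knees held 11.8% ± 1.70 (SD, n = 35). Over the treated synovium libraries they held 14.1% ± 3.74 (SD, n = 35), from 9.11% in ACLT 8 to 25.01% in ACLT 11. Most of that excess was held by the most abundant pair. ENSSSCT00000056782.3 alone held 1.15% ± 0.67 (SD, n = 12) of CON and 2.73% ± 1.24 (SD, n = 35) of treated synovium reads. Without both, the other 198 held 7.41% ± 0.42 (SD, n = 12) of CON and 7.69% ± 0.80 (SD, n = 35) of treated synovium reads, and 7.32% ± 0.52 (SD, n = 12) and 7.37% ± 0.65 (SD, n = 35) in cartilage.

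**Figure D5:**
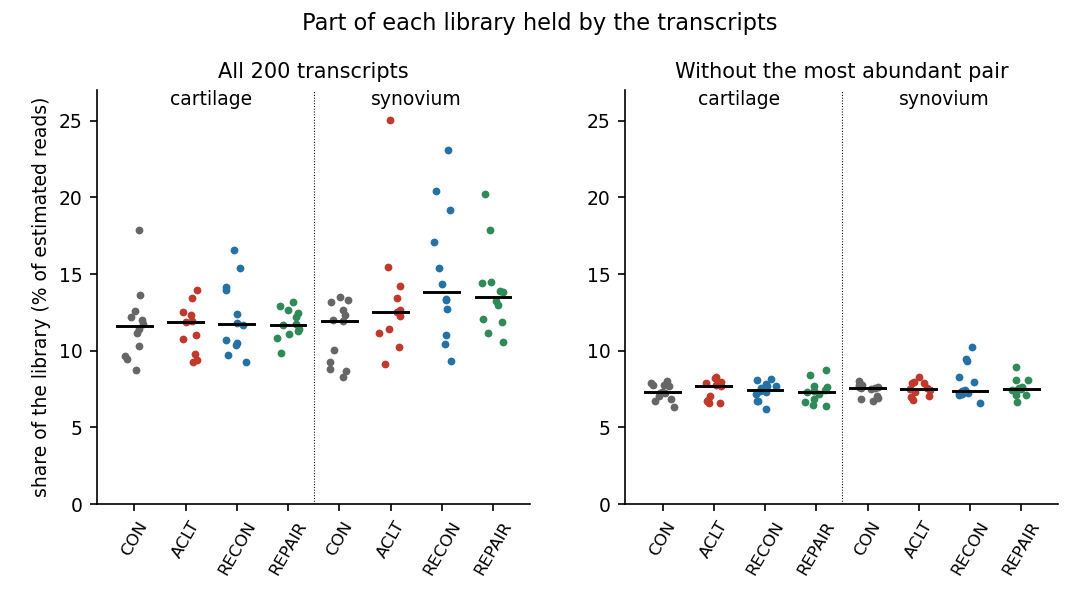
Each point is 1 library, and its height is the percent of its estimated reads held by all 200 transcripts (left) or by the 198 left without the most abundant pair (right); colours give the group and black lines are medians. The left panel reaches 25.01% in 1 ACLT synovium library, and the right panel stays between 6.18% and 10.3% in every library.

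Treatments were also set against each other, which used no library that chose the members. The edgeR test called no member in any of the 6 comparisons. Of all transcripts tested it called 0.0657% in RECON against ACLT, 0.0493% in REPAIR against ACLT and 0.0854% in REPAIR against RECON in cartilage, and 0.0263%, 0.00985% and 0.0821% in synovium. At an unadjusted p under 0.05 there were 2, 10 and 16 members in cartilage, against 4.82%, 5.90% and 7.77% of all tested, and 4, 5 and 16 in synovium, against 4.91%, 3.85% and 6.08%. DESeq2 called 1 member in REPAIR against RECON in each tissue, where it called 0.782% of all tested in cartilage and 0.420% in synovium, and none in the other comparisons. The intervals bounded most shifts: between 179 and 183 members in cartilage and between 176 and 187 in synovium had a 95% interval within -0.5 to 0.5.

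Whether surgery moved a member differently in the tissues was tested by the interaction, the treated minus CON difference in cartilage minus that in synovium. It was called below 0 for 30 members and above 0 for 3. Of all transcripts tested 8.38% were called, 4.27% below 0 and 4.11% above. Of the 33 members, 26 were among the 51 higher in treated synovium and 2 among the 5 lower. ENSSSCT00000006167.5 had an interaction of -1.10 ± 0.25 (SE; edgeR adjusted p = 0.00250), and ENSSSCT00000056782.3 one of -1.01 ± 0.31 (SE; edgeR adjusted p = 0.0259). That of ENSSSCT00000046829.3 was 1.47 ± 0.54 (SE; edgeR adjusted p = 0.0748) and was not called. On library totals 19 members were below 0 and 7 above, where 8.85% of all tested were called, 2.42% below 0 and 6.43% above. The choice fixed the CON tissue ratio near 0 on library totals, so these counts are read beside those shares and not as a property of the members.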

How the data were processed

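Ribosomal RNA was depleted from total RNA, and paired-end libraries of all samples were pooled and sequenced together. The authors quantified transcripts of Sscrofa11.1 with Salmon 1.8.0, per the labels, and deposited 1 table per library with estimated counts and TPM (scaled by effective length and library size). Here estimated counts were rounded to whole numbers. Transcripts were kept by filterByExpr (minimum count 10; 30447 of 46295, all 200 members among them) and tested with edgeR 4.0.16 (R 4.3.3) by the quasi-likelihood test with TMM scaling, 8 groups in 1 fit of 94 libraries, Benjamini-Hochberg adjustment over all transcripts and a threshold of 0.05. Intervals are 95% and are not adjusted. The script was tested on simulated data. The members and comparison lists were chosen with earlier results of these data known. Knee ACLT 12 was left out.

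The study's animal list names its libraries by treatment, tissue and number, and was matched to the labels on all 3, on the assumption that both number the knees alike. It gives both libraries of a number as 1 knee and each CON knee an operated knee of the same animal, and samples were treated as paired on this ground in the alternative fits. The correlation of deviations from group means averaged 0.0529 over 47 knees, 0.101 over 12 animals in cartilage and 0.0827 in synovium. The closest 2 libraries of a group differed by 20.9 times the sampling noise (chi-square per degree of freedom), so none was counted as a repeat. Marker and gene lists that had been planned were not run, since no table used here pairs transcripts with genes. Named by rule were the 2 called synovium members with the largest rise and the 2 with the largest fall that kept 1 sign in the 3 treatments, the most abundant and the steadiest. Alternatives were DESeq2 1.42.0, DESeq2 size factors, library totals, another filter, ACLT 12 added, the replicate block, RNA integrity from the study's list, and other choices of members. The fit without 3 synovium libraries and the members chosen on TMM-scaled CPM were added after seeing the data.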

Additional observations from a re-analysis of the deposited data

Results flagged for a closer look

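With TMM scaling the interaction of tissue and treatment had an adjusted p under 0.05 (edgeR) for 33 of the 200 members, which is why they are listed here, and for 8.38% of all transcripts tested. In 30 the treated minus CON difference was higher in synovium and in 3 it was higher in cartilage. On library totals these were 19 and 7. Of all tested, 4.27% and 4.11% were called in these directions with TMM scaling, and 2.42% and 6.43% on library totals. The choice of members fixed the CON tissue ratio near 0, so the counts are a description. Without the synovium of CON 11, REPAIR 5 and REPAIR 7 the test called 43 members, 39 and 4, and 12.8% of all tested. In members chosen on CON 1 to 6 and tested against CON 7 to 12, which include CON 11, it called 9, 8 and 1, and 1.52% of all tested.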

How the results depend on the processing

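Of 177 values under an alternative, 140 stayed within 1.5 times the reported count with the same leading direction. Many of the 140 were cartilage counts of 0 or 1 that did not change, so the 140 say little about comparisons with many calls. Both reversals came on library totals, in cartilage against synovium of RECON (90 members called, 30 higher in cartilage) and REPAIR knees (95, 36 higher), and ACLT moved to 82 there. With the animal as replicate block, members called in synovium were 33 treated, 0 in ACLT, 2 in RECON and 0 in REPAIR, and in cartilage 0 treated and 0 in RECON. By construction each treatment then rests on 4 animals. The block changed no other count by over 1.5 times, and treatments share no animal, so no paired analysis was possible between them. Members chosen on CON 1 to 6 and tested against CON 7 to 12 gave 34, 21, 35 and 17 in synovium (treated, ACLT, RECON, REPAIR), 0 in RECON cartilage and 9 in the interaction. Of all tested, that fit called 9.79%, 4.59%, 11.0% and 3.61% in synovium, 0.175% in RECON cartilage and 1.52% in the interaction. Its CON knees include CON 11. The 100 highest in C + S, a list of fewer members, gave 29, 20, 31 and 18 in synovium. In cartilage, where the reported counts are 0 or 1, DESeq2 gave 3 treated, 1 in ACLT, 3 in RECON, 1 in REPAIR and 1 in REPAIR against RECON, and 1 in REPAIR against RECON in synovium. DESeq2 size factors gave 2 in RECON cartilage, the wider filter 2 treated, RNA integrity as a covariate 0 treated and 0 in RECON, ACLT 12 added 1 in ACLT, and members chosen on TMM-scaled CPM 0 treated. Leaving out the synovium of CON 11, REPAIR 5 and REPAIR 7 gave 52 in REPAIR synovium (15.1% of all tested) and 1 in ACLT cartilage (0.349%). The cause of these moves was not tested beyond the constructions named. Leaving out each CON knee in turn kept 186 to 199 of the 200 members, the fewest without CON 11. TMM scaling in the rule kept 93 and r within 0.25 kept 122. With TMM scaling 93 members in CON, 125 in ACLT, 136 in RECON and 104 in REPAIR knees had an r within 0.5. No member's estimate was under 55 reads, and depth was not varied.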

Other observations

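Knee ACLT 12, which entered only the alternative fit with it added, held 14.5% of its cartilage reads and 21.7% of its synovium reads in the 200 members. The other ACLT libraries held 9.24% to 13.9% and 9.11% to 25.01%. Over the members, its cartilage lay 0.37 (root mean square, log2 CPM) away from the ACLT average, where the other ACLT cartilage libraries lay 0.20 to 0.29 away. Its synovium lay 0.39 away, within their 0.22 to 0.55.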
